A study of Pararge aegeria with 4 samples.

Results

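Rab GTPases are small proteins that mark the membranes of a cell and direct which vesicle goes where. A Rab is switched on when an exchange factor replaces its GDP with GTP, is switched off when a GTPase-activating protein speeds up hydrolysis, and is drawn off membranes and held in the cytosol by GDP dissociation inhibitor (GDI). While switched on, it recruits effectors such as tethers, motors and adaptors. In an insect ovary this machinery serves among other tasks the uptake of yolk by the oocyte, through early and recycling endosomes, and the secretion of eggshell proteins by the follicle cells. The genes described here are the Rab GTPases and their regulators found in the ovary transcriptome of the Speckled Wood butterfly Pararge aegeria.

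The rule that found the members used no expression value, though the set was chosen with earlier results of these data known. Members were found in the deposited annotation by name alone, by either of 2 routes. The first was Rab directly followed by a digit in the symbol or name of an earlier hit, called here by symbol. The second was annotation text that names a Rab-related protein, a Rab GTPase, a Rab GDP protein, Rab3, Rab5 or Rab11. Together the routes gave 56 of 17636 contigs. These belong to 33 of 9873 Trinity genes (the groups of contigs that the assembler places together). Of these, 24 are Rab GTPases, 7 are regulators or effectors, and 2 (Golgin A5 and the solute carrier SLC35F5) were found only through the text of a Gene Ontology term. Only 10 contigs were found by symbol, some of them through a name such as Rab11 interacting protein. A further 3 were found through a Gene Ontology term only, and the others by the description of a hit. In 5 genes another annotation column names a different protein: Rab-2A (centromere protein L, for some of its contigs), Rab-35 (a zinc finger protein), Rab-9A (Rab-12), Rab-27A (the nuclear GTPase Ran) and Rab11-FIP4 (a USP6 N-terminal-like protein). No member is named Rab3 or Rab10, and Rab3 appears only through a subunit of its GTPase-activating protein.

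The members carry terms of vesicle traffic. The term for vesicle-mediated transport was on 32.1% of member contigs against 1.81% of all contigs, GTPase activity on 28.6% against 0.703%, Golgi apparatus on 23.2% against 0.953%, and endosome on 12.5% against 0.346%. The rule read these annotation texts in part, so the shares are a description only.

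Ovaries were taken from laboratory-reared females of the populations Zonza, a stock from Corsica, and St Hubert, a stock from the south of Belgium that had been in the laboratory for longer. In each population the ovaries of 2 females, cleared of fat body and taken 6 days after mating, went into 1 mRNA library. Levels are FPKM, that is fragments scaled by the length of the contig and by the mapped fragments of the library, and were summed over the member contigs of each Trinity gene. Differences are given as log2((Zonza FPKM + 1)/(St Hubert FPKM + 1)), which understates the change of low genes.

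Because each population gave a single library, no difference could be checked against replicates. Each value compares those libraries and not the populations, and time in the laboratory, origin and library cannot be told apart. The steps between low FPKM values gave a depth of 20350000 mapped fragments in Zonza and 21700000 in St Hubert, and 95.9% and 95.7% of the low values fell within 0.1 of a whole number of fragments. Ratios of genes with a single member contig carry 95% intervals from these fragments, which cover counting error only. In whole ovaries fewer cells of a type and less RNA per cell cannot be told apart.

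All 33 genes had a mean FPKM of at least 1, and 32 of them were above 0 in both libraries. The levels ran between a mean of 1.59 FPKM for Rab-37 and 229 FPKM for GDI, and the 5 most abundant members carried 50.1% of the members' FPKM in Zonza and 50.2% in St Hubert. Most members had nearly the same level in both libraries: 29 of 33 differed by less than 2-fold and 27 by less than 1.5-fold (81.8%, against 76.5% of all genes compared). At least 2-fold higher in Zonza were 2 members, Rab-23 and Rab-37, which is 6.06% beside 5.2% of the 9459 genes compared. At least 2-fold lower were also 2, Rab-8A and Rabaptin-like B (of a pair of Rabaptin-like genes), beside 5.12% of all genes. Both shares lie near the background, whose genes were summed over all their contigs. Summed in that way, Rabaptin-like B had a log2 ratio of 0.40 and was not lower.

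**Figure D1:**
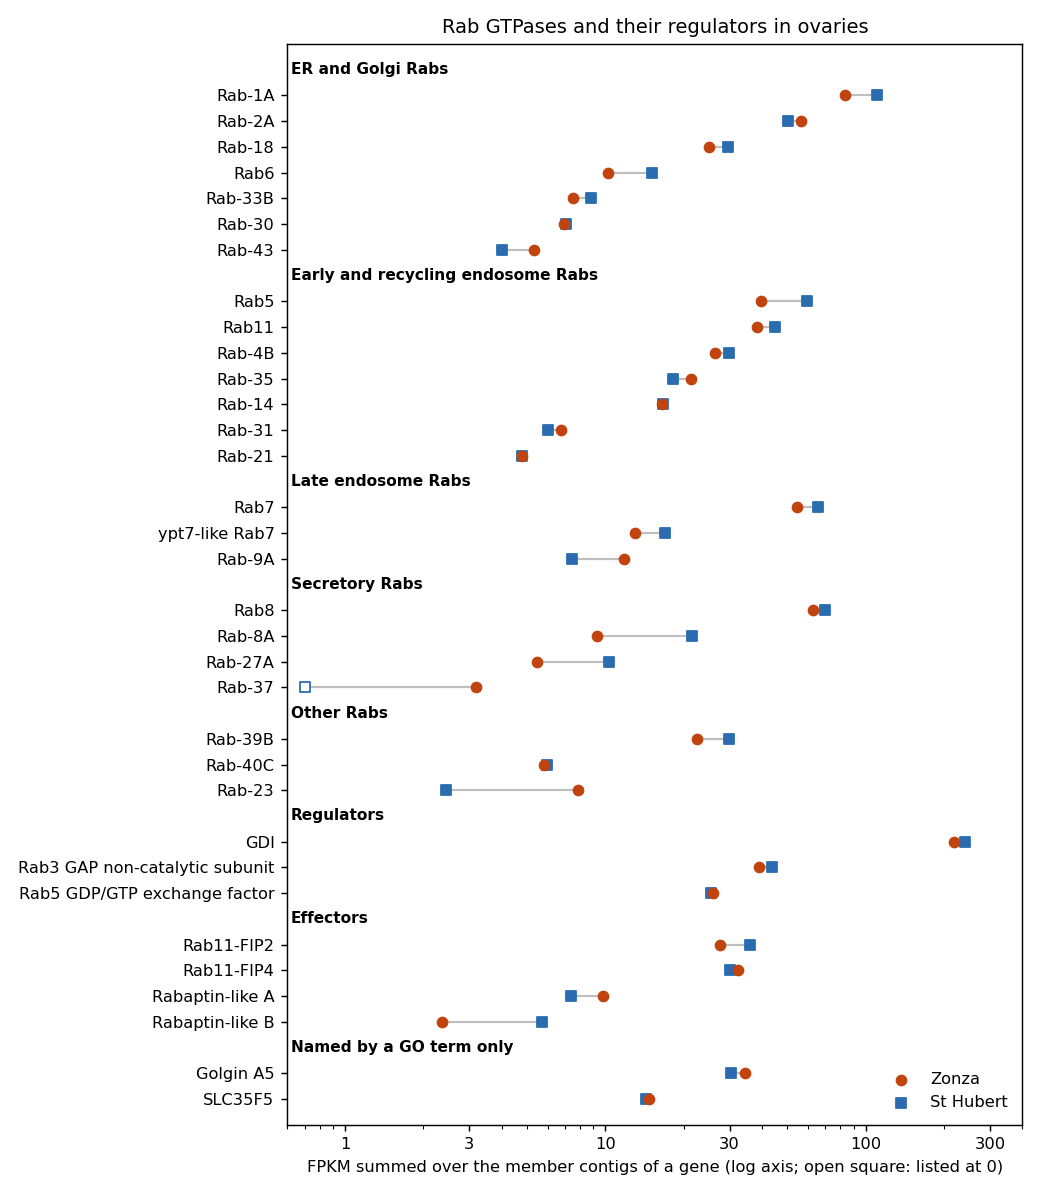
FPKM of each of the 33 member genes in the Zonza library (circles) and the St Hubert library (squares) on a log axis, grouped by role, with 1 library per population and therefore no error bars. The longest lines joining the points are those of Rab-8A, Rab-27A, Rab-37 (listed at 0 in St Hubert, open square), Rab-23 and Rabaptin-like B.

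Members were somewhat more often lower in Zonza than all genes were, mostly by small differences. Of the 33 members 20 were lower (60.6%, beside 50.6% of all genes compared), 12 higher and 1 equal. The median log2 ratio was -0.14, beside -0.01 over all genes compared. The background counts all contigs of a gene. Counted in that way, Rab-14 (log2 ratio 0.35) and Rabaptin-like B (0.40) were higher in Zonza and Rab-2A (-0.13) was lower. Among the 24 Rab GTPases alone 16 were lower, 7 higher and 1 equal, with a median of -0.16. Their summed level was 545 FPKM in Zonza and 634 FPKM in St Hubert, a ratio of 0.858. The share of lower genes differed by level. Of the 9 Rabs with a mean of at least 20 FPKM, 8 were lower (beside 48.8% of all genes at that level lower in Zonza). Among these 9 the direction of Rab-4B depends on the scale, and that of Rab-2A on the contigs counted, as given below. Of the 15 rarer Rabs 8 were lower (beside 52.3%), a share near that of all genes. All members together made up 0.172% of the FPKM in Zonza and 0.196% in St Hubert.

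**Figure D2:**
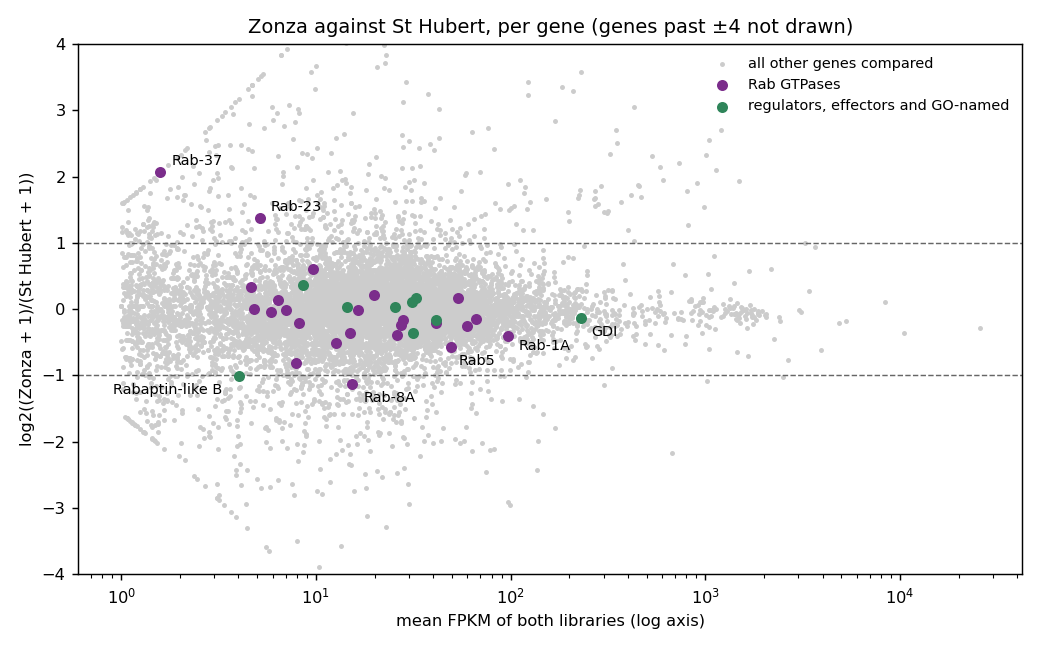
Log2 ratio of Zonza over St Hubert (FPKM + 1) against mean FPKM (log axis) for the 9459 genes compared, with Rab GTPases in purple and the other members in green, and dashed lines at a 2-fold difference. Of the members 20 lie below 0 and most sit within the grey cloud, with Rab-37 and Rab-23 above the upper line and Rab-8A and Rabaptin-like B below the lower one.

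Among the Rabs of the endoplasmic reticulum (ER) and Golgi, the most abundant was Rab-1A, which acts in transport between these compartments. Rab-1A stood at 83.3 FPKM in Zonza, against 110.4 FPKM in St Hubert, a log2 ratio of -0.40. Its ratio rests on 2376 fragments in Zonza and 3354 in St Hubert, with a counting interval of 0.716 to 0.796. Rab6, a Golgi Rab that works in traffic within and out of the Golgi, was lower by a like amount, with 10.3 FPKM in Zonza and 15.1 FPKM in St Hubert (log2 ratio -0.52, counting interval of the ratio 0.595 to 0.777). Both intervals lie below 1, so counting error alone does not span the difference between these libraries.

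Rab-2A, which also acts between ER and Golgi, was the exception among the abundant Rabs. It had 56.5 FPKM in Zonza and 50.3 FPKM in St Hubert over its 4 member contigs (log2 ratio 0.16). With a further contig of the same Trinity gene, which carries no Rab name, the order turned, with 57.6 FPKM in Zonza and 63.2 FPKM in St Hubert (log2 ratio -0.13). The direction for Rab-2A is thus set by which contigs are counted.

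The other 4 ER and Golgi Rabs were less abundant than Rab-1A and Rab-2A. Rab-18, found on ER and lipid droplets, had 24.9 FPKM in Zonza and 29.6 FPKM in St Hubert. Rab-33B and Rab-30, both Golgi Rabs, had 7.48 and 6.96 FPKM in Zonza and 8.81 and 7.06 FPKM in St Hubert. Rab-43 was the only other one higher in Zonza, with 5.32 FPKM against 4.01 FPKM in St Hubert (log2 ratio 0.34). Summed over the 7 genes the class had 195 FPKM in Zonza and 225 FPKM in St Hubert.

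The early and recycling endosome Rabs, which handle material just taken up from the cell surface, showed their largest difference in Rab5, the Rab that defines early endosomes and drives their fusion. Rab5 had 39.6 FPKM in Zonza, against 59.6 FPKM in St Hubert (log2 ratio -0.58). The counts were 1872 fragments in Zonza and 2998 in St Hubert, giving a counting interval of the ratio of 0.628 to 0.706. None of the 9 abundant Rabs had a lower ratio of FPKM, while in fragments scaled by library depth alone Rab-39B was lower, with a ratio of 0.625 against 0.666 for Rab5.

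The recycling Rabs were closer to even. Rab11, which returns membrane from recycling endosomes to the cell surface, had 38.3 FPKM in Zonza and 44.7 FPKM in St Hubert (log2 ratio -0.22). Rab-4B, of the fast recycling route, had 26.4 FPKM in Zonza and 29.7 FPKM in St Hubert. For Rab-4B the contigs used differ much in length, and in fragments scaled by library depth alone it was 1.34 times as high in Zonza as in St Hubert, so its direction depends on the scale. Rab-35, a further recycling Rab, was slightly higher in Zonza, at 21.3 FPKM against 18.2 FPKM in St Hubert.

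Rab-14, Rab-31 and Rab-21, which act on endosomes and between them and the Golgi, differed least. Rab-21 was listed at 4.78 FPKM in both libraries, and Rab-14 at 16.5 FPKM in Zonza and 16.6 FPKM in St Hubert. Counting all contigs of its Trinity gene, Rab-14 was higher in Zonza, with a log2 ratio of 0.35. Rab-31 had 6.77 FPKM in Zonza and 6.04 FPKM in St Hubert. The 7 genes of early and recycling endosomes together had 154 FPKM in Zonza and 180 FPKM in St Hubert, and their median log2 ratio was -0.01.

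Late endosomes and lysosomes were represented by Rab7, a second Rab7-like gene and Rab-9A. Rab7, which drives the maturation of late endosomes and their fusion with lysosomes, had 54.6 FPKM in Zonza and 65.4 FPKM in St Hubert (log2 ratio -0.25). With 3592 fragments in Zonza and 4583 in St Hubert, the counting interval of its ratio was 0.80 to 0.873. The second gene, whose best protein hit is named after the yeast Rab7 protein Ypt7, was lower by a like amount, at 13.03 FPKM in Zonza and 16.96 FPKM in St Hubert. Rab-9A, which acts in return transport to the Golgi, differed in the other direction, with 11.8 FPKM in Zonza and 7.45 FPKM in St Hubert (log2 ratio 0.60).

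The secretory Rabs held the member with the lowest log2 ratio. Rab8, which carries vesicles to the plasma membrane, was abundant and nearly even, with 62.6 FPKM in Zonza and 69.7 FPKM in St Hubert. A separate single-contig gene annotated as Rab-8A (c13735_g1, 919 bases) had 9.30 FPKM in Zonza, against 21.5 FPKM in St Hubert, a log2 ratio of -1.13. Its ratio was 0.433, with a counting interval of 0.356 to 0.527 on 149 fragments in Zonza and 366 in St Hubert. The best protein hit of this contig and its hit in the earlier P. aegeria ovary transcriptome are both named Rab-8A. Its best nucleotide hit is a Ras family gene of the fungus Coccidioides posadasii. Reads that the Rab8 and Rab-8A contigs could share were divided between them by the authors' estimate, and how far this affects the rarer Rab-8A was not tested.

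Rab-27A, known from regulated secretion, was also lower, with 5.44 FPKM in Zonza and 10.4 FPKM in St Hubert (log2 ratio -0.82, counting interval of the ratio 0.451 to 0.612). Rab-37, a relative of Rab-27A in mammals, had 3.18 FPKM in Zonza and was listed at 0 in St Hubert. This value stands for 5 fragments on a contig of 205 bases, and the counting interval of its ratio starts at 0.977. A higher level of Rab-37 in Zonza is therefore not established at this depth. Summed, the 4 secretory Rabs had 80.6 FPKM in Zonza and 102 FPKM in St Hubert.

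Of the other Rabs, Rab-23 differed most. In mammals Rab-23 is known as a regulator of Hedgehog signalling and of cilia. Rab-23 (c15297_g1) had 7.87 FPKM in Zonza, against 2.44 FPKM in St Hubert, a log2 ratio of 1.37. On 254 fragments in Zonza and 84 in St Hubert its ratio was 3.22, with a counting interval of 2.51 to 4.18. It is a low-level gene, with a mean of 5.16 FPKM. With a second contig of the same Trinity gene it had 9.46 FPKM in Zonza and 2.44 FPKM in St Hubert (log2 ratio 1.60). Rab-39B and Rab-40C make up the rest, with 22.5 and 5.79 FPKM in Zonza and 29.7 and 5.97 FPKM in St Hubert.

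The general regulators of the cycle were nearly even between the libraries. GDI, which keeps inactive Rabs soluble, was the most abundant member and above 97.1% of all genes by level. It had 218 FPKM in Zonza and 240.4 FPKM in St Hubert, a log2 ratio of -0.14 with a counting interval of the ratio of 0.883 to 0.936. The non-catalytic subunit of the Rab3 GTPase-activating protein had 38.9 FPKM in Zonza and 43.6 FPKM in St Hubert (log2 ratio -0.16). The Rab5 GDP/GTP exchange factor, which switches Rab5 on, had 25.8 FPKM in Zonza and 25.4 FPKM in St Hubert. Its log2 ratio of 0.03 stands beside -0.58 for Rab5 itself.

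Effectors fell on both sides. Rab11-FIP2, which links Rab11 to recycling vesicles, had 27.6 FPKM in Zonza and 35.8 FPKM in St Hubert (log2 ratio -0.36). Rab11-FIP4 had 32.3 FPKM in Zonza and 30.1 FPKM in St Hubert over 5 contigs, while in fragments scaled by library depth alone its ratio was 0.917, so its direction also depends on the scale.

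The pair of genes like Rabaptin, an effector that works with the Rab5 exchange factor, went opposite ways. Rabaptin-like A (c11126_g1) had 9.81 FPKM in Zonza and 7.41 FPKM in St Hubert. Rabaptin-like B (c15657_g1) had 2.35 FPKM in Zonza and 5.72 FPKM in St Hubert (log2 ratio -1.004, on 96 fragments in Zonza and 249 in St Hubert). Over all annotated contigs of its Trinity gene, Rabaptin-like B reversed to 11.9 FPKM in Zonza against 8.76 FPKM in St Hubert (log2 ratio 0.40), so that it is low only by the contig that carries the name. The members found through a Gene Ontology term, the Golgi matrix protein Golgin A5 and SLC35F5, had 34.5 and 14.7 FPKM in Zonza and 30.5 and 14.3 FPKM in St Hubert.

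While gene sums were close, the contigs behind them often were not. Of the 55 member contigs compared, 16 were at least 2-fold higher in Zonza (29.1%, beside 21.7% of all contigs) and 12 at least 2-fold lower (21.8%, beside 18.0% of all contigs). At 0 in Zonza only were 5 member contigs (8.93%, beside 6.95% of all contigs), and 9 were at 0 in St Hubert only (16.1%, beside 13.1%). Of the 15 genes with several member contigs, 9 held contigs past 2-fold in both directions (60.0%, beside 40.8% of all genes with several contigs). Members enter this last comparison by the contigs found by the rule only, and all genes by every annotated contig.

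Rab11 gave a nearly complete exchange. Its contig of 2374 bases had 0.17 FPKM in Zonza and 44.7 FPKM in St Hubert, while its contig of 2403 bases had 38.1 FPKM in Zonza and was listed at 0 in St Hubert. The contigs differ in length by 29 bases, and the gene sums differed little. Rab-30 showed the same pattern at a lower level. Its contig of 2919 bases had 6.96 FPKM in Zonza and was listed at 0 in St Hubert, and its contig of 2901 bases was listed at 0 in Zonza and had 7.06 FPKM in St Hubert. Their lengths differ by 18 bases.

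Others were exchanged in part. Of the Rab11-FIP2 contigs, which differ in length by 13 bases, the longer had 6.29 FPKM in Zonza and 35.8 FPKM in St Hubert, and the shorter had 21.3 FPKM in Zonza and was listed at 0 in St Hubert. Rab-18 had 10.7 FPKM in Zonza and 29.6 FPKM in St Hubert on its longer contig, while the shorter had 14.2 FPKM in Zonza and was listed at 0 in St Hubert. In each of these genes the St Hubert library used a single contig and the Zonza library used both.

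The contigs of Rab-4B differ more in length. That of 3136 bases had 18.2 FPKM in Zonza and 0.06 FPKM in St Hubert, and that of 1758 bases had 6.69 FPKM in Zonza and 26.9 FPKM in St Hubert. Rab-9A had 11.8 FPKM in Zonza and 1.64 FPKM in St Hubert on its contig of 1336 bases, while its contig of 1275 bases was listed at 0 in Zonza and had 5.81 FPKM in St Hubert. In Rab-2A the leading contig was that of 5507 bases in Zonza, with 25.9 FPKM against 5.31 FPKM in St Hubert. In St Hubert the contig of 5670 bases led Rab-2A, with 9.35 FPKM in Zonza and 43.1 FPKM in St Hubert.

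**Figure D3:**
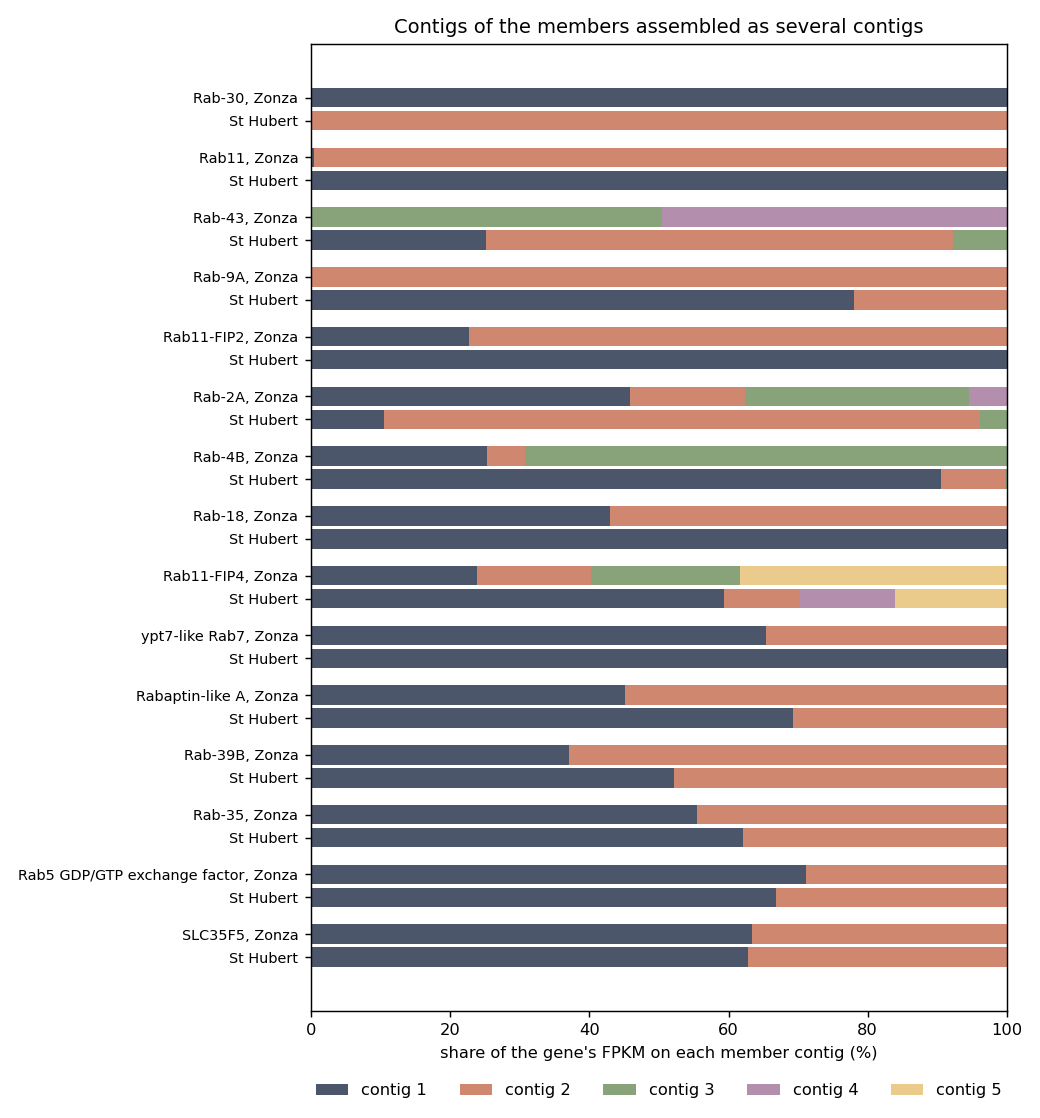
Share of each gene's FPKM (%) on its member contigs, with the Zonza bar above the St Hubert bar, for the 15 members assembled as several contigs and ordered by how far the shares differ. Colours number the contigs in the order of the assembly, and the bars of Rab-30 and Rab11 are of opposite colours while those of SLC35F5 match.

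The share of a gene's FPKM that sits on different contigs in the libraries was computed for all genes of several contigs (0% where the shares match, 100% where no contig is shared). It was 50% or more in 8 of the 15 members (53.3%, beside 37.3% of the 4147 such genes): Rab-30 (100%), Rab11 (99.6%), Rab-43 (92.3%), Rab-9A (78.0%), Rab11-FIP2 (77.2%), Rab-2A (69.1%), Rab-4B (69.0%) and Rab-18 (57.0%). The median was 57.0% in members and 37.7% over all such genes. Another contig led in each library in 11 of 15 members (73.3%, beside 54.0% of all such genes). Member and background shares are not on the same footing. Those of members cover only the contigs found by the rule, and those of all genes cover every annotated contig. With every annotated contig counted, 18 members had several contigs. Rab-14, Rab-23 and Rabaptin-like B, each with a single member contig, are left out of the member shares given here. At the other end, Rab-35 (6.6%), the Rab5 exchange factor (4.2%) and SLC35F5 (0.7%) used their contigs alike. Genes with more contigs have more room to differ: among genes of exactly 2 contigs the share was 50% or more in 5 of 11 members, beside 30.6% of all. Contig sequences were not analysed here, and what sets the contigs of a gene apart was not tested.

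**Figure D4:**
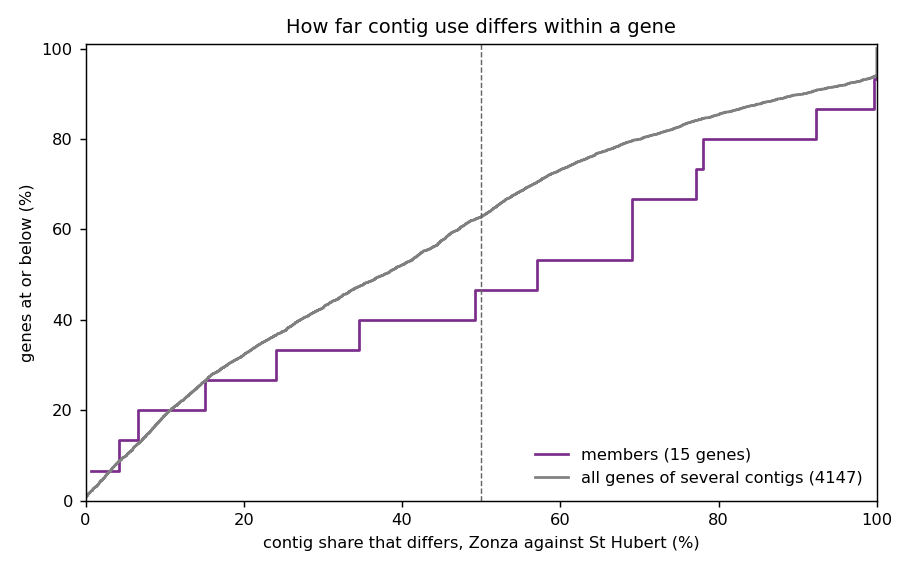
Cumulative share of genes (%) against the share of contig use that differs between Zonza and St Hubert (%), for the 15 members with several contigs (purple) and all 4147 genes with several contigs (grey), with a dashed line at 50%. The member curve runs below the grey one over most of the range and reaches its median at 57.0%, against 37.7% for all such genes. Member values cover only contigs found by the rule, and grey values cover every annotated contig.

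Rab regulators and effectors that the naming rule did not reach showed no common lean. Of 17 exchange factors and carriers compared, among them the TRAPP subunits that act on Rab1 and the geranylgeranyl transferase that attaches the lipid anchor of Rabs, 8 were higher and 9 lower in Zonza (median log2 ratio -0.01). Only TRAPP subunit 12 passed 2-fold, with 12.9 FPKM in Zonza and 37.7 FPKM in St Hubert. The TBC domain proteins, the main family of Rab GTPase-activating proteins, had 7 of 13 higher and a median of 0.01. A further 15 effectors had 8 higher, 7 lower, and a median of 0.08, which turned to -0.09 at a mean FPKM of at least 5. None of the TBC proteins or effectors passed 2-fold in either direction.

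The machinery that Rabs recruit varied by step. The list of HOPS and CORVET tethers, which act with Rab7 and Rab5 in endosome fusion, was higher in Zonza in 6 of 8 genes (median log2 ratio 0.32). Its sums were 150.0 FPKM in Zonza and 108 FPKM in St Hubert. The most abundant gene in these sums was annotated as Vps33b, with 53.2 FPKM in Zonza and 27.7 FPKM in St Hubert. It was listed by name beside Vps33a, and its place in these complexes was not examined. Vps18 (deep orange) passed 2-fold, with 18.7 FPKM in Zonza and 7.22 FPKM in St Hubert. Trinity genes annotated as subunits of the exocyst, which tethers secretory vesicles at the plasma membrane, were higher in 9 of 14 (median 0.15). Several of these genes carry the name of the same subunit, most often component 4, so they are not separate subunits. The clathrin, AP-2 and dynamin genes of endocytosis were lower in 4 of 6 (median -0.26), at 209 FPKM in Zonza and 249.7 FPKM in St Hubert in sum. The 3 retromer subunits had a median of 0.02, and the 14 SNAREs and NSF genes compared a median of 0.01. No exocyst, retromer, clathrin or SNARE gene of these lists passed 2-fold.

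Other small GTPases gave a scale for the Rab values. The Arf, Arl and Sar family, which governs vesicle coats, had 11 of 15 lower in Zonza and a median log2 ratio of -0.07. Past 2-fold was 1 gene, annotated as Arl2, with 39.6 FPKM in Zonza and 15.5 FPKM in St Hubert. Other Trinity genes annotated as Arl2 had log2 ratios of 0.41, 0.165 and -0.33, all within 2-fold. The Ras, Ral, Rap and Rheb genes had 8 of 9 lower and a median of -0.12, with 1 past 2-fold, a Ral-a gene at 5.61 FPKM in Zonza and 12.9 FPKM in St Hubert. In the list for the Ran cycle, which works in nuclear transport, Ran itself had a log2 ratio of -0.07. The names RanBP2 and RanBPM each occur there on more than 1 Trinity gene. Of its entries 7 of 9 were higher, with a median of 0.34. That median was 0.13 with a pseudocount of 5 and 0.20 at a mean FPKM of at least 5, and the sums were nearly even, at 690 FPKM in Zonza and 696 FPKM in St Hubert. The Rab median of -0.16 is thus below 0 like those of the Arf and Ras lists, and nearer to the Ras than to the Arf median. These medians carry no test.

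**Figure D5:**
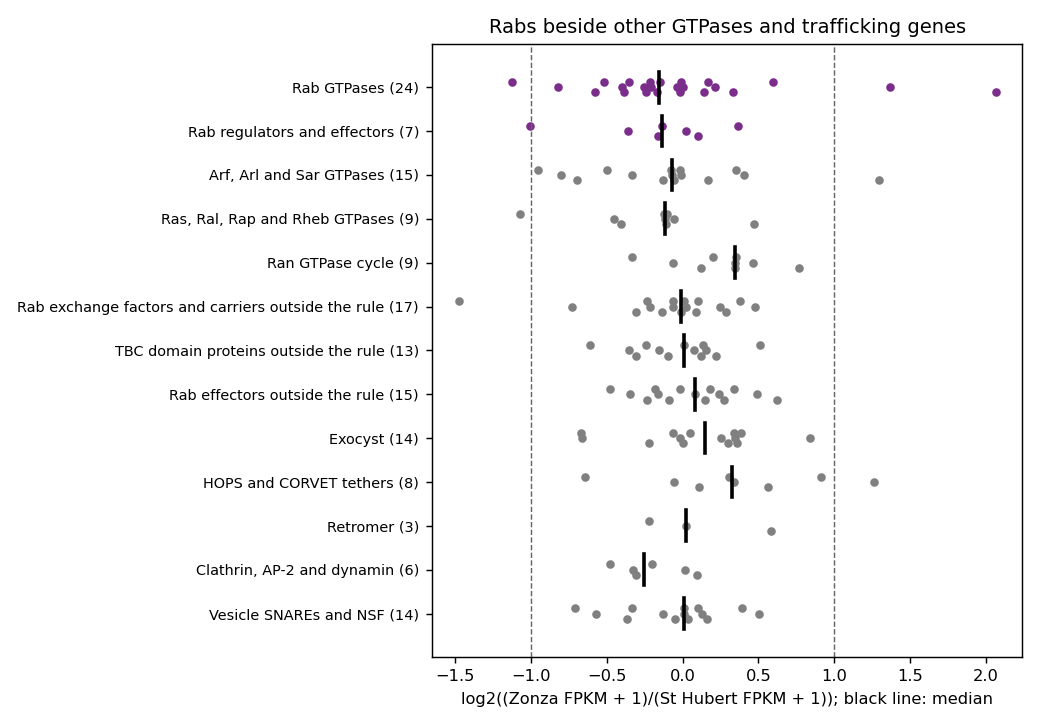
Log2 ratio of Zonza over St Hubert (FPKM + 1) for each compared gene of the Rab sets (purple) and of other GTPase and trafficking lists (grey), with the number of genes in brackets, the median as a black line and dashed lines at a 2-fold difference. The Rab GTPase median of -0.16 lies below 0, as do those of the Arf and Ras families, while the HOPS and CORVET and Ran medians lie above 0.

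Markers of the cell types in an ovary differed between the libraries as well. All 13 chorion genes, products of follicle cells that build the eggshell, were higher in Zonza, 11 of them past 2-fold, and took 1.91% of all FPKM in Zonza against 0.54% in St Hubert. Germ line genes such as vasa, nanos and piwi were present in both, with a median log2 ratio of -0.25 over 6 genes and sums of 1067 FPKM in Zonza and 1307 FPKM in St Hubert. Muscle genes were lower in Zonza in 14 of 18 compared, with 789 FPKM in Zonza and 977 FPKM in St Hubert. The 3 fat body genes were all past 2-fold higher, at 2373 FPKM in Zonza and 431 FPKM in St Hubert in sum, mostly from apolipophorin-III, and the storage protein among them had 2.02 FPKM in Zonza and was listed at 0 in St Hubert. The 4 haemocyte genes summed to 2.04 FPKM in Zonza and 8.11 FPKM in St Hubert. The part of these differences in the Rab values was not tested.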

How the data were processed

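The ovary mRNA of 1 library per population (paired-end Illumina reads) was used. The authors trimmed the first 16 bases, assembled the pooled reads with Trinity, estimated FPKM per contig with RSEM and kept contigs with a BLAST hit. Deposited FPKM, contig lengths and annotation text were used, and the small RNA files were not. Bowtie is listed in the submitters' processing notes, and a genome build is not given in the sources used here.

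FPKM were summed per Trinity gene over member contigs (over all contigs for other genes). Genes with a mean FPKM of at least 1 were compared on the log2(FPKM + 1) scale with a 2-fold threshold and no test. Mapped fragments were found from the steps of low FPKM, where 20% of values would lie within 0.1 of a whole number without steps. Intervals are exact conditional Poisson intervals at 95%.

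Every member is named, with full values for the 10 most abundant, those past 2-fold and a fixed set of Rabs and GDI. Members and lists were chosen with earlier results of these data known, and names that plainly mismatched were dropped from lists after values were seen. Contig share and fragments scaled by library depth alone were added after seeing the data. Procedures were tested on simulated data. Computation ran in Python 3.11.15 with pandas 2.3.3 and numpy 2.4.6, intervals came from scipy 1.17.1, and plots were drawn with matplotlib 3.10.9.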

Additional observations from a re-analysis of the deposited data

How the results depend on the processing

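No paired analysis was possible because each population had 1 library, and for the same reason no replicate could be left out. The 2 members past 2-fold higher and 2 lower in Zonza became 0 and 0 with a pseudocount of 5 and with the 7 genes found by symbol only, 1 and 1 at a mean FPKM of at least 5, and 1 and 0 at a 3-fold threshold. The member left at the 3-fold threshold was Rab-37, on 5 fragments in Zonza and 0 in St Hubert. With all annotated contigs of the gene 1 member was past 2-fold lower. With contigs of at least 500 bases, and with fragments scaled by library depth alone in place of FPKM, 1 was past 2-fold higher. Rab-37 drops out of both. The median log2 ratio was -0.36 for the 7 genes found by symbol only, which include the Rab3 GTPase-activating protein subunit and Rab11-FIP2. Member contigs past 2-fold were 9 higher and 7 lower in Zonza both with a pseudocount of 5 and at a mean FPKM of at least 5. Genes with 50% or more of contig share moved numbered 5 with exactly 2 contigs. Rabaptin-like B reversed to 0.40 with all annotated contigs. Of 198 values of single genes under alternatives, 189 moved by less than the counting error, 8 moved further and 1 reversed, and 5 genes changed sign under some alternative. The ratio of summed Rab GTPase FPKM was 0.849 with equal library sums and 0.852 with median-of-ratios factors. The median of the effectors outside the naming rule turned to -0.09 at a mean FPKM of at least 5. Depth limits Rab-37, with 5 fragments in Zonza and 0 in St Hubert.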
